A study of Mus musculus with 12 samples.

Results

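The genes described here are the Myc paralogs Myc, Mycn and Mycl, their partner Max, and the Max partners Mxd1, Mxd3, Mxd4 and Mnt. These 8 genes were chosen by name, and all 8 were present among the 23301 gene names shared by the files of all 12 samples. RNA-seq was performed in mouse mammary tissue in 2 experiments, each with 3 replicates per group, and all mice were 12 weeks old. In the first experiment, the Normal group was untreated mammary gland of female FVB wild type mice, with the abdominal and inguinal glands of 3 mice pooled in each replicate. The Tumor group was untreated tumor tissue of female MMTV-PyVT mice, in which the MMTV promoter drives the polyoma virus middle T antigen, and each replicate came from the thoracic gland of 1 mouse. Genotype, tissue, gland position and pooling therefore changed together between Normal and Tumor, and their effects cannot be told apart. In the second experiment, mammary tumors of MMTV-PyVT mice were taken after injection of DMSO, the solvent, or of C646, an inhibitor of the histone acetyltransferase p300, both labelled with a dose of 1 mg/kg, and the largest tumor of each of 3 mice per group was sequenced. Both treated groups thus carried the same transgene as the Tumor group, and no normal tissue was treated.

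Myc is a transcription factor that binds DNA only as a dimer with Max, preferentially at the E-box CACGTG, and drives genes of ribosome production, metabolism and cell division. The Mxd proteins and Mnt compete for Max, bind the same E-box, and recruit Sin3 and histone deacetylases, so that they repress genes that Myc activates. MYC is among the most frequently amplified oncogenes in human breast cancer, MYCN is best known from neuroblastoma, and MYCL from small cell lung cancer.

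Because the network binds the E-box, the promoters of its own genes were searched for CACGTG, which reads the same on both strands. The windows ran from 250 bases before to 50 bases after the start of each gene (RefSeq, GRCm38.p6), and 7 of the 8 genes, all but Myc, had one. The E-box was present in 3 of the 7, namely Mxd4, Mnt and Max, and in 2187 of 27025 genes with a window (8.09%). The stretches below are shown because they place the network's own binding letters at its partner genes. The capitals mark the E-box, which began 219 bases before the start in Mxd4 (chr5:34187912-34187941, minus strand), 123 before it in Mnt (chr11:74830789-74830818, plus strand) and 3 before it in Max (chr12:76962234-76962263, minus strand), where it spanned the start. These distances are from RefSeq starts. In GENCODE vM21 Max starts at 76962201 instead, so its E-box lies upstream of that start and does not span it. A match of letters does not show binding.
Mxd4: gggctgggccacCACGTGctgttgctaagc
Mnt: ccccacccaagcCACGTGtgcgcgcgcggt
Max: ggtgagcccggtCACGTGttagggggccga

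Expression was given as FPKM, which scales fragments by the length of the gene and by sequencing depth, so levels of different genes in a sample can be set side by side. In Normal tissue the mean FPKM fell in the order Mxd4, Max, Myc, Mxd1, Mnt, Mycl, Mxd3 and Mycn, and no neighbours in this order overlapped. In Tumor the order was Myc, Mxd4, Max, Mxd3, Mxd1, Mnt, Mycl and Mycn. There, the values of Myc, Mxd4 and Max overlapped, as did those of Mxd3 with Mxd1 and of Mxd1 with Mnt. Myc was thus the third most abundant of the 8 in Normal, and in Tumor it stood in an unresolved leading group of 3. The place of Mxd1 in these 2 groups rests on a sum of 3 rows of that name, described below. Row 3 alone, at 6.24 to 6.94 FPKM in Normal and 1.38 to 2.31 FPKM in Tumor, lay below Mnt in both. In DMSO and C646 tumors the order was Mxd4, Max, Myc, Mnt, Mxd1, Mxd3, Mycl and Mycn. The first 3 overlapped in DMSO but not in C646, Mxd1 overlapped Mxd3 in both, and Mycl overlapped Mycn in DMSO only. The 2 experiments were run separately and their files list different sets of genes, so no test was made across them.

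**Figure D1:**
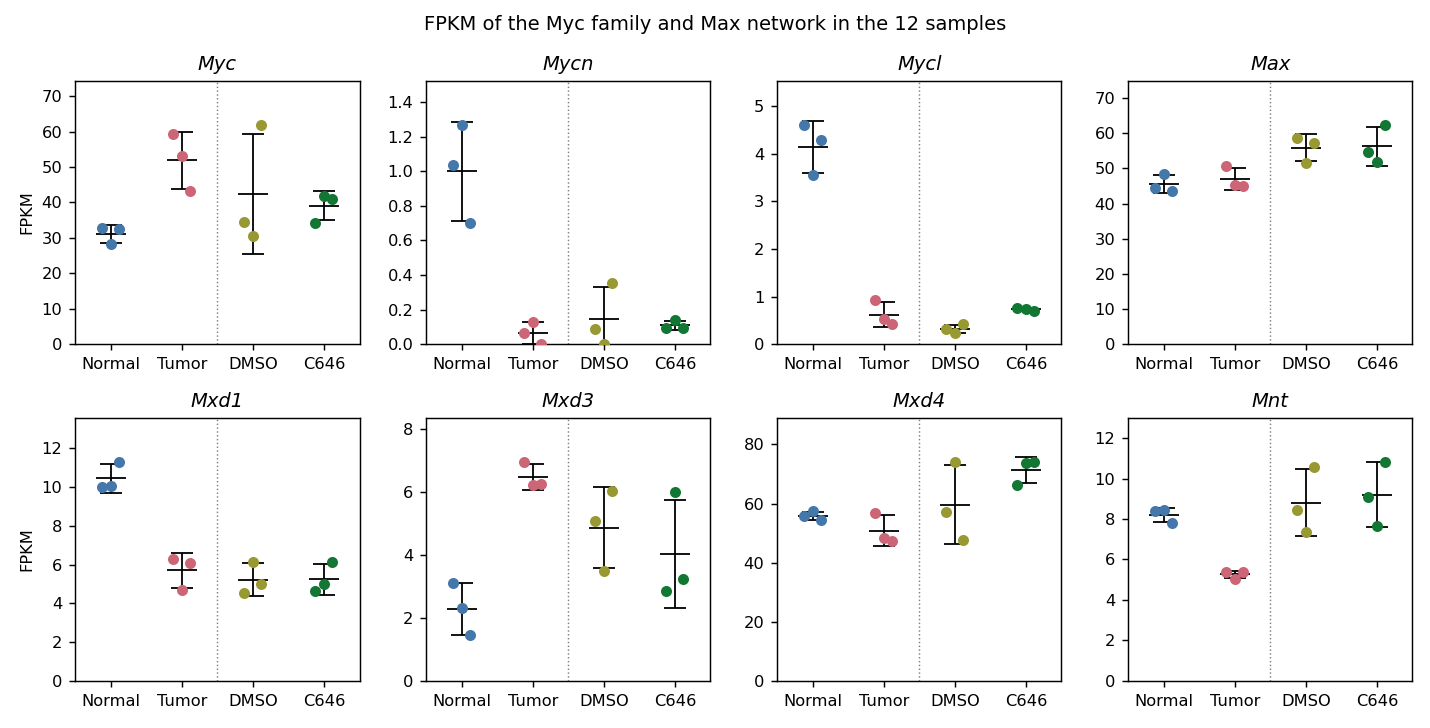
FPKM of the 8 genes in each of the 12 samples, 1 panel per gene with its own linear axis from 0. Points are samples, lines and bars are the mean and SD of 3 samples, and the dotted line separates the 2 experiments. Myc and Mxd3 sat higher in Tumor than in Normal, Mycn, Mycl, Mxd1 and Mnt sat lower, and most DMSO and C646 points overlapped.

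Comparing Normal with Tumor addressed which genes change their expression in mammary tumors. Myc and Mxd3 were higher in Tumor, and Mycl, Mxd1 and Mnt were lower. Max and Mxd4 did not pass the test, and Mycn was too low for it. The test was limma on log2(FPKM + 0.03125), with p-values adjusted by Benjamini-Hochberg and called under 0.05. A gene was tested only if 3 or more of the 6 samples reached 1 FPKM. It called 2 of the 7 members tested higher, where 28.8% of all 13031 genes tested were called higher, and 3 lower, where 31.7% were. Of the 3 lower, Mycl entered the test through its Normal values alone. With such a large share of all genes changed, 5 of 7 members called stood beside 60.5% of all genes. The median log2 change was -0.14 over the 7 members and -0.02 over all genes tested.

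Among the Myc paralogs, Myc was measured at 32.7, 28.3 and 32.5 FPKM in Normal and at 59.2, 53.1 and 43.3 FPKM in Tumor. Every Tumor value lay above every Normal value, which held for 33.1% of all genes tested. The mean rose 1.67-fold, from 31.1 ± 2.48 to 51.9 ± 7.99 FPKM (SD, n = 3), with a log2 change of 0.73 (SE 0.155, limma with Benjamini-Hochberg, adjusted p = 0.00521). Since these were bulk samples, a change in the number of cells of a type and a change in RNA per cell cannot be told apart, for this and for the other genes.

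Mycl, the paralog first found in lung cancer, moved the other way. It was measured at 4.60, 3.54 and 4.29 FPKM in Normal and at 0.921, 0.520 and 0.416 FPKM in Tumor. No value overlapped, as for 35.8% of all genes in the lower direction. The mean in Normal was 6.69 times that in Tumor, and the log2 change was -2.75 (SE 0.336, limma with Benjamini-Hochberg, adjusted p = 0.000416). This size depends on the pseudocount, with -1.67 when 1 FPKM was added. Mycl entered the test only through Normal, since no Tumor value reached 1 FPKM, so its call as lower is no independent support. Without any 1 of the Normal replicates, Mycl fell below the limit on low values and was not tested.

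Mycn, the paralog known from neural tumors, was the lowest of the 8 in every group. In Normal it was measured at 1.04, 1.27 and 0.698 FPKM, and in Tumor at 0.0641 and 0.126 FPKM and at 0 in replicate 3. Only 2 samples reached 1 FPKM, both Normal, so it was not in the limma test. The groups did not overlap, as in the lower direction for 20.4% (and in the higher for 8.89%) of the 5689 genes under the limit. An exact two-sided permutation test gave p = 0.1, the smallest that 3 samples against 3 allow. With the limit on low values removed, limma with Benjamini-Hochberg called Mycn lower, with a log2 change of -3.69 (adjusted p = 0.00297). As a share of the summed FPKM of the paralogs, Myc took 85.3% to 86.7% in Normal and 98.4% to 99.0% in Tumor.

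Max, the shared partner, was measured at 44.4, 48.6 and 43.7 FPKM in Normal and at 50.7, 45.3 and 45.0 FPKM in Tumor, and the groups overlapped. Its log2 change was 0.04, with a 95% interval from -0.24 to 0.33 (limma with Benjamini-Hochberg, adjusted p = 0.774). The direction of this small value depended on the scaling, since quantile normalization gave -0.11 and leaving out Tumor replicate 1 gave -0.01. The ratio of Max to the summed paralogs in a sample ranged from 1.16 to 1.47 in Normal and from 0.842 to 1.03 in Tumor. So the summed Myc paralogs were below Max in all 3 Normal samples and above Max in Tumor replicates 1 and 2.

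Of the antagonists, Mxd3, a member of the family known to be expressed in dividing cells, was higher in Tumor. Its values were 3.10, 2.32 and 1.44 FPKM in Normal and 6.96, 6.21 and 6.26 FPKM in Tumor, with no overlap. The mean rose 2.83-fold, from 2.29 ± 0.827 to 6.48 ± 0.420 FPKM (SD, n = 3), and the log2 change was 1.55 (SE 0.286, limma with Benjamini-Hochberg, adjusted p = 0.00268).

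Mnt, the broadly expressed antagonist, was lower in Tumor. It was measured at 8.38, 8.43 and 7.78 FPKM in Normal and at 5.37, 5.05 and 5.36 FPKM in Tumor. Relative to its mean, Mnt varied least within groups among the called members, and the groups did not overlap. The log2 change was -0.64 (SE 0.140, limma with Benjamini-Hochberg, adjusted p = 0.00598). Mnt stayed past the threshold under every alternative, most narrowly under quantile normalization, with a log2 change of -0.37 (adjusted p = 0.0482). The treated tumors of the second experiment did not share the low values of Tumor. Mnt ranged there from 7.36 to 10.6 FPKM in DMSO and from 7.65 to 10.8 FPKM in C646. Levels across the experiments were not tested.

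Mxd1, whose product is known to accumulate as cells differentiate, was also lower in Tumor. It was measured at 9.99, 10.1 and 11.3 FPKM in Normal and at 6.32, 4.69 and 6.11 FPKM in Tumor, with no overlap. The log2 change was -0.88 (SE 0.170, limma with Benjamini-Hochberg, adjusted p = 0.00336).

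The Mxd1 value is the sum of 3 rows of that name in the Normal and Tumor tables, and these rows did not move together. Row 1 spanned 0.991 to 2.23 FPKM in Normal and 1.15 to 3.70 FPKM in Tumor, and alone it gave a log2 change of 0.46 (limma with Benjamini-Hochberg, adjusted p = 0.431). Row 2 spanned 1.21 to 3.59 FPKM in Normal and 1.23 to 1.75 FPKM in Tumor, and alone it gave -0.48 (adjusted p = 0.334). Row 3, with 6.24 to 6.94 FPKM in Normal and 1.38 to 2.31 FPKM in Tumor, gave -1.80 alone (adjusted p = 0.000542). The fall thus came from row 3, and rows 1 and 2 overlapped between the groups. Mxd1 lies on the minus strand of chromosome 6 (86647042 to 86669161, GRCm38). Rows 1 and 2 stood among neighbours of which 10 of 10 lie on the plus strand, while 8 of the 10 neighbours of row 3 lie on the minus strand. The library kept no strand, and what rows 1 and 2 measure was not tested.

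Mxd4 was the most abundant antagonist, at 55.7, 57.4 and 54.3 FPKM in Normal and 56.8, 48.3 and 47.2 FPKM in Tumor. The groups overlapped, and the log2 change was -0.14, with a 95% interval from -0.44 to 0.16 (limma with Benjamini-Hochberg, adjusted p = 0.365). Under quantile normalization, which moved the median change of all genes from -0.02 to 0.10, Mxd4 passed as lower, with -0.30 (adjusted p = 0.0375). Mxd4 made up 72.2% to 73.4% of the summed FPKM of the 4 antagonists in Normal and 72.7% to 75.3% in Tumor.

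With Myc higher and most antagonists level or lower, the balance within each sample differed between the groups. The ratio of Myc to the summed antagonists was 0.423, 0.362 and 0.434 in Normal and 0.785, 0.825 and 0.667 in Tumor. All Tumor ratios lay above all Normal ratios, and this is given as a description because the ratio combines genes tested above.

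**Figure D2:**
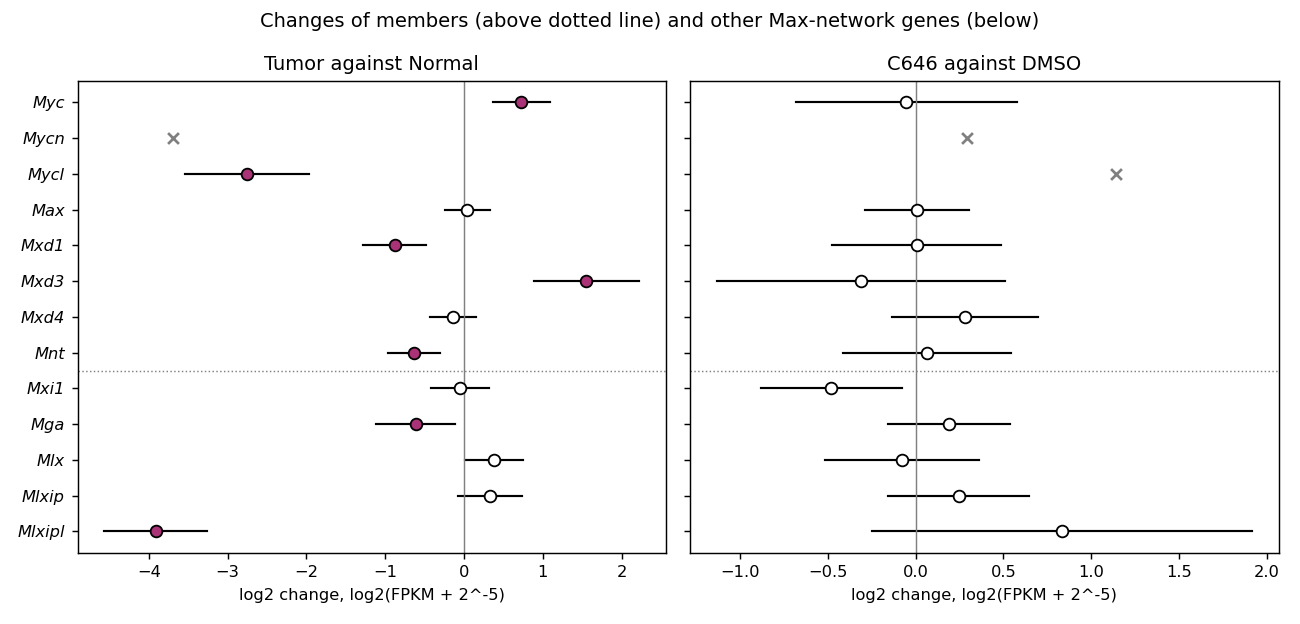
Log2 change of each of the 8 genes and the 5 related Max network genes, with 95% intervals from limma, in Tumor against Normal (left) and C646 against DMSO (right). Filled points passed an adjusted p of 0.05, and genes under the limit on low values are crosses at the difference in mean, without an interval; the axes of the panels differ. Filled points occur on the left panel only, led by Mlxipl at -3.91, Mycl at -2.75 and Mxd3 at 1.55.

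**Figure D3:**
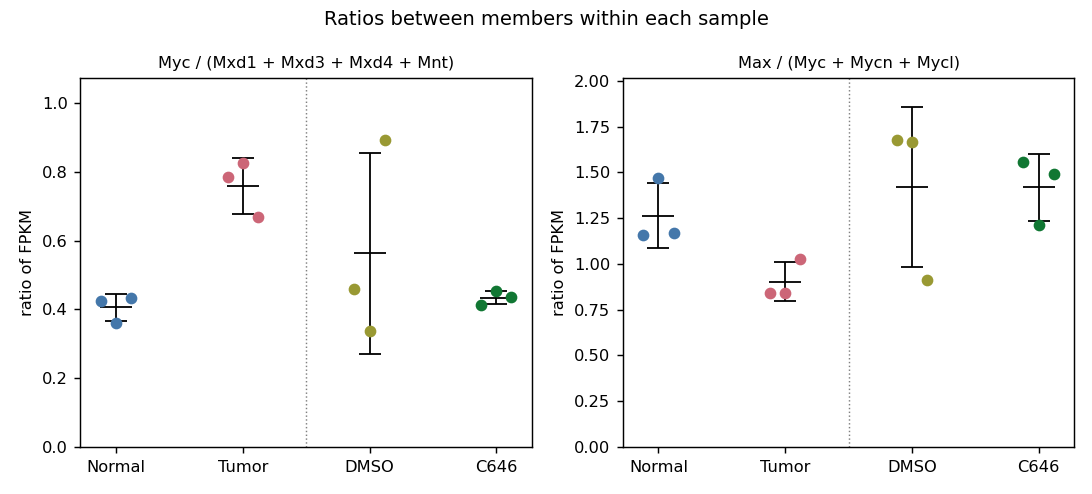
Ratio of FPKM within each sample, for Myc over the summed antagonists (left) and for Max over the summed Myc paralogs (right), on linear axes from 0. Points are samples, and lines and bars are the mean and SD of 3 samples. The Tumor points lie above the Normal points on the left and below them on the right, while DMSO replicate 3 stands apart from DMSO replicates 1 and 2 in both.

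The wider Max network was described by 5 related genes, of which 0 passed as higher and 2 as lower. Of all genes tested, 28.8% passed as higher and 31.7% as lower. Over the alternatives, 0 to 1 of the 5 passed as higher and 1 to 2 as lower. Mlxipl, the glucose-responsive factor that pairs with Mlx, fell from 41.8 ± 5.70 to 2.87 ± 1.19 FPKM (SD, n = 3), with a log2 change of -3.91 (SE 0.278, limma with Benjamini-Hochberg, adjusted p = 4.8e-05). Mga, a large Max partner that also carries a T-box domain, was measured at 5.11, 3.96 and 5.38 FPKM in Normal and at 2.57, 3.56 and 3.29 FPKM in Tumor. Its log2 change of -0.61 passed narrowly (limma with Benjamini-Hochberg, adjusted p = 0.0399). The call ended under quantile normalization (-0.19, adjusted p = 0.455) and median-ratio scaling (adjusted p = 0.0591). It also ended with no limit on low values (adjusted p = 0.0565) and with a replicate block (adjusted p = 0.0817). The same held without Normal replicate 1, Normal replicate 3, Tumor replicate 1 or Tumor replicate 3 (adjusted p = 0.123, 0.138, 0.0907 and 0.0661). Mxi1, an Mxd family member also called Mxd2, had a log2 change of -0.05 (adjusted p = 0.798), Mlx, the Max-like partner, of 0.38 (adjusted p = 0.07) and Mlxip, the other partner of Mlx, of 0.33 (adjusted p = 0.133). Mlx passed as higher when Tumor replicate 1 was left out, with 0.51 (adjusted p = 0.0163). An E-box was also present in the promoter windows of Mlx (chr11:101087238-101087267, plus strand) and Mlxipl (chr5:135089780-135089809, plus strand).
Mlx: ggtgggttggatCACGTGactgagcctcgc
Mlxipl: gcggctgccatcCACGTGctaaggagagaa

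Transcripts of proteins that work with Myc on chromatin were mostly higher in Tumor. Of 9 cofactors, 6 passed as higher and 0 as lower, with a median log2 change of 0.71. Over the alternatives, 5 to 7 passed as higher and 0 to 1 as lower. Beside this and the lists that follow, 28.8% of all genes tested passed as higher and 31.7% as lower. Kat2a, a histone acetyltransferase recruited by Myc, rose 2.23-fold to 33.6 ± 4.17 FPKM (SD, n = 3; log2 change 1.15, limma with Benjamini-Hochberg, adjusted p = 0.000358). Zbtb17, known as Miz1, with which Myc represses genes, rose from 7.22 ± 1.09 to 14.4 ± 2.13 FPKM (adjusted p = 0.0027), and Ruvbl1, an ATPase of chromatin complexes, rose 1.92-fold (adjusted p = 0.00187).

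The corepressor through which Mxd and Mnt act was split, with 2 of 6 genes higher, 2 lower and a median log2 change of -0.19. Sap30, a subunit of the Sin3 complex, rose 4.67-fold from 7.09 ± 0.589 to 33.1 ± 5.61 FPKM (SD, n = 3), and Sin3b, one of the Sin3 scaffolds, rose 1.87-fold. Ncor1, a nuclear receptor corepressor, fell from 19.3 ± 0.421 to 9.16 ± 1.49 FPKM, with a log2 change of -1.08 (limma with Benjamini-Hochberg, adjusted p = 0.00098). Sin3a, the other scaffold, had a log2 change of -0.40 (adjusted p = 0.0371), a call that ended without any 1 of the 6 samples. The Sin3a call also ended under median-ratio scaling (adjusted p = 0.0513), quantile normalization (adjusted p = 0.121) and a replicate block (adjusted p = 0.0785).

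Of the genes that control the Myc protein's turnover, 6 were tested, of which 2 passed as higher and 0 as lower. The alternatives gave 1 to 3 higher and 0 to 1 lower. Skp2, a ubiquitin ligase subunit that targets Myc and also acts in the cell cycle, rose 4.58-fold (log2 change 2.14, limma with Benjamini-Hochberg, adjusted p = 0.000268). Fbxw7, the subunit that recognises phosphorylated Myc, had a log2 change of 0.67 (adjusted p = 0.0353), a call that ended without Normal replicate 1, Normal replicate 3 or Tumor replicate 1 (adjusted p = 0.0885, 0.117 and 0.0884). Myc protein was not measured here.

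Genes commonly listed as Myc targets were described next, in lists chosen with results of these samples known. Of 20 genes of ribosome production, 17 passed as higher and 0 as lower, and the median log2 change was 0.82. Between 14 and 18 passed as higher over the alternatives, and 0 as lower. Nop16, a nucleolar protein, rose 2.71-fold from 15.3 ± 2.05 to 41.4 ± 5.98 FPKM (SD, n = 3; limma with Benjamini-Hochberg, adjusted p = 0.000351). Ppan and Mrto4, both factors of large ribosomal subunit assembly, rose 2.50-fold and 2.41-fold.

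Among 19 tested targets in growth and metabolism, 11 passed as higher and 2 as lower, with a median log2 change of 1.01. Over the alternatives these counts were 11 to 14 and 1 to 2. Tfrc, the transferrin receptor, rose 5.38-fold, with a wide spread in Tumor (33.9 ± 21.3 FPKM, SD, n = 3; limma with Benjamini-Hochberg, adjusted p = 0.00221). Srm, the spermidine synthase, rose 3.28-fold, and Nme1, a nucleoside diphosphate kinase, rose 3.22-fold. In the opposite direction, Ccnd2, a D-type cyclin, fell from 30.4 ± 2.47 to 1.68 ± 0.442 FPKM, with a log2 change of -4.19 (adjusted p = 2.27e-05). Prdx3, a mitochondrial peroxiredoxin, had a log2 change of -0.68 (adjusted p = 0.0126), and its call ended without Normal replicate 3 (adjusted p = 0.0563).

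Genes that Myc is known to repress did not move as a block, with 4 of 7 higher and 2 lower. Thbs1, an inhibitor of angiogenesis, Gadd45a, a stress-induced growth arrest gene, and Ndrg1, a differentiation-related gene, were higher, with log2 changes of 1.72, 1.47 and 1.16 (limma with Benjamini-Hochberg, adjusted p = 0.0158, 0.00194 and 0.043). Cebpa, a factor of adipocyte differentiation, and Ndrg2 were lower, with -2.93 and -2.21. The calls of Thbs1 (adjusted p = 0.056 and 0.0569) and Ndrg1 ended without Normal replicate 2 or without Normal replicate 3, and that of Ndrg1 also without Normal replicate 1, under quantile normalization (adjusted p = 0.0813), with no limit on low values (0.0516), in the fit over all 12 samples (0.0845) and with no variance trend (0.0593), which left 2 to 4 genes of the list higher over all alternatives.

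All 12 genes of cell division in a separate list were higher in Tumor, with a median log2 change of 2.55. Plk1, a mitotic kinase, rose 7.69-fold, Rrm2, a ribonucleotide reductase subunit, rose 8.28-fold, and Ccnb1, a mitotic cyclin, rose 7.43-fold. All 12 passed under every alternative.

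**Figure D4:**
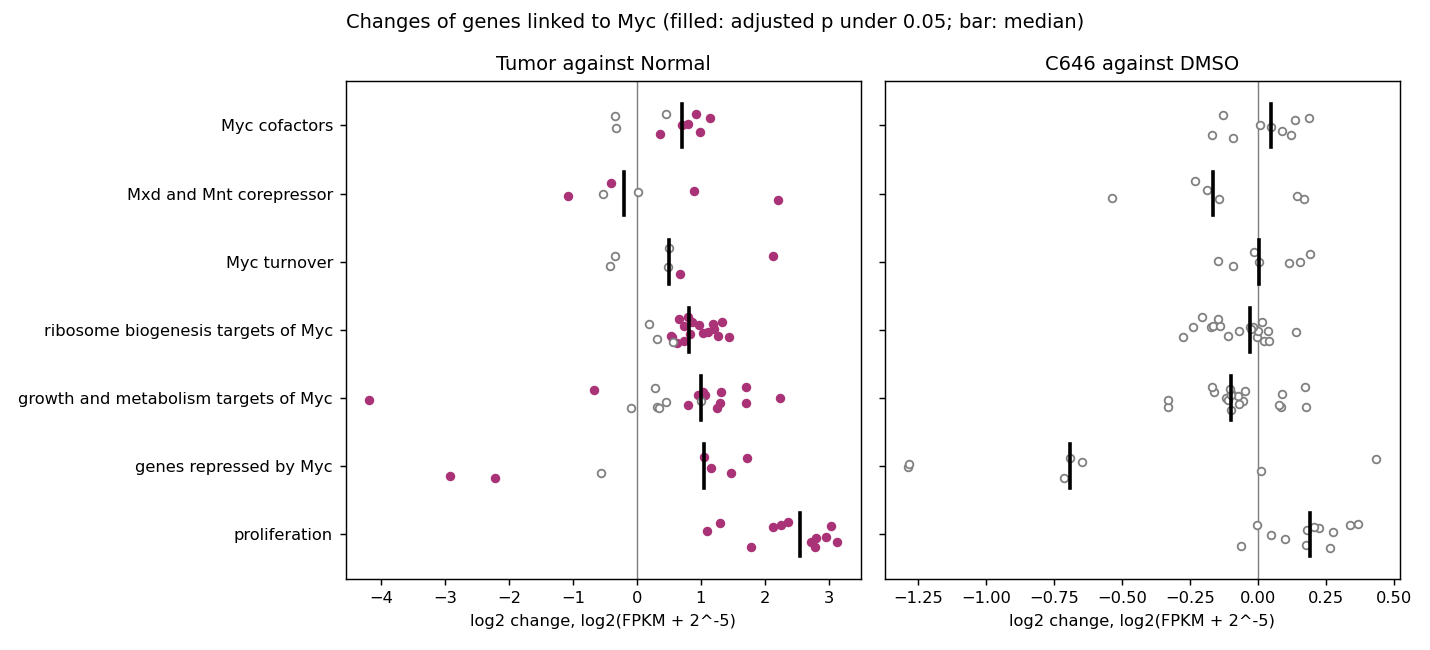
Log2 change of every tested gene (points) and the median (line) for the 7 lists of genes linked to Myc, in Tumor against Normal (left) and C646 against DMSO (right). Filled points passed an adjusted p of 0.05, and the horizontal axes of the panels differ. On the left all ribosome production and cell division genes lie to the right of 0, and on the right no point is filled. The median of the genes repressed by Myc on the right, -0.69, was -0.17 without DMSO replicate 1 and -1.27 without DMSO replicate 2.

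The tissues also differed in their cells, between the same Normal and Tumor samples as the results above. The summed FPKM of 6 adipocyte genes was 24998 to 31428 in Normal and 101 to 2397 in Tumor, with the highest Tumor value in replicate 1, and all 6 passed as lower. The defining genes of B cells and T cells summed to 223 to 284 and 213 to 298 FPKM in Normal, and to no more than 0.816 and 2.08 FPKM in Tumor. In contrast, 6 luminal epithelium genes summed to 436 to 929 FPKM in Normal and 2880 to 4074 in Tumor, and 5 of the 6 passed as higher. Skeletal muscle genes, which mark neither mammary epithelium nor fat, summed to 5.28 to 63.2 FPKM in Normal and 1364 to 3857 in Tumor, and all 4 passed as higher. Genes of endothelium (5 of 5), fibroblasts (4 of 5), leukocytes (4 of 4) and macrophages (4 of 4) passed as lower, and basal epithelium genes were split (2 higher and 2 lower of 6). The part of these cells in the changes of the Myc network was not tested.

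Comparing C646 with DMSO addressed which genes change in tumors after injection of this p300 inhibitor. The RNA values do not measure how far p300 was inhibited in them. None of the 6 members tested passed, and neither did any other gene. Mycl and Mycn were under the limit on low values and were not in this test. Limma with Benjamini-Hochberg adjustment called 0 of 12083 genes (0%), with 384 at an unadjusted p under 0.05, of which 0 were among the 6 members tested. The smallest adjusted p of any gene was 0.99. Leaving out DMSO replicate 2 gave 12 genes lower in C646, with 0 of the 6 members tested among them. The median log2 change was 0.01 over the 6 members and -0.01 over all genes.

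Myc was measured at 34.6, 30.7 and 61.9 FPKM in DMSO and at 34.3, 41.8 and 41.1 FPKM in C646. DMSO replicate 3 lay above all other treated tumors, and the C646 values lay between the DMSO extremes. The log2 change was -0.05, with a 95% interval from -0.68 to 0.58 (limma with Benjamini-Hochberg, adjusted p = 0.997). Without DMSO replicate 3 the log2 change was 0.26 (adjusted p = 0.802).

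DMSO replicate 3 also differed in markers of other cells. Its basal epithelium genes summed to 359 FPKM, against 36.7 and 51.9 FPKM in DMSO replicates 1 and 2, and its skeletal muscle genes to 279 FPKM, against 0.376 and 0.934 FPKM. Skeletal muscle genes were also high in C646 replicates 1 and 3 (292 and 270 FPKM) and not in replicate 2 (0.656 FPKM). The part of these in the Myc values was not tested.

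Mycl was the 1 member whose treated groups did not overlap. It was measured at 0.314, 0.240 and 0.415 FPKM in DMSO and at 0.757, 0.746 and 0.704 FPKM in C646. The C646 mean was 2.28 times the DMSO mean, and all values were under 1 FPKM, so Mycl was not in the limma test. Non-overlap in this direction occurred in 3.51% of the 5790 genes under the limit. The exact two-sided permutation test gave p = 0.1, the smallest possible, and with the limit on low values removed limma with Benjamini-Hochberg gave an adjusted p of 0.925. The summed FPKM of adipocyte genes was 11.5, 67.8 and 49.6 in DMSO and 89.1, 357 and 579 in C646, with no overlap. Their median log2 change was 4.34 over the 5 tested, with 0 of the 5 called. Within C646, where Mycl spanned only 0.704 to 0.757 FPKM, the order was opposite, with Mycl highest in replicate 1, where the adipocyte sum was lowest. Mycl was also highest in Normal, where the sums of adipocyte, B cell, T cell, leukocyte, macrophage, fibroblast and endothelium genes were all highest. Within Normal and within DMSO, replicate 2 had the highest adipocyte sum and the lowest Mycl. Within Tumor, replicate 1 had both the highest adipocyte sum (2397) and the highest Mycl (0.921 FPKM). The part of any of these cells in the Mycl values was not tested. Mycn was measured at 0.0866, 0 and 0.354 FPKM in DMSO and at 0.0919, 0.140 and 0.0925 FPKM in C646 (exact two-sided permutation test, p = 0.7).

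Max was measured at 58.8, 51.5 and 57.3 FPKM in DMSO and at 54.7, 51.7 and 62.4 FPKM in C646. Its log2 change of 0.01 had the narrowest 95% interval of the 6 tested genes, from -0.29 to 0.30. Mxd4 was measured at 57.1, 74.0 and 47.7 FPKM in DMSO and at 66.3, 73.7 and 74.2 FPKM in C646, with a log2 change of 0.28 (95% interval -0.13 to 0.70). Among these antagonists and Max, every pair of treated groups overlapped. Mxd3 had 5.08, 3.49 and 6.03 FPKM in DMSO and 2.86, 6.01 and 3.24 FPKM in C646, with a log2 change of -0.31 (95% interval -1.13 to 0.51). Leaving out 1 sample moved Mxd3 between -0.64 and -0.10 and Mxd4 between 0.13 and 0.45, with none called. Mnt and Mxd1 had log2 changes of 0.07 (-0.42 to 0.55) and 0.01 (-0.47 to 0.49). Adjusted p-values of these 5 genes ranged upwards from 0.99 (limma with Benjamini-Hochberg). In these files Mxd1 has 1 row, whose neighbours match those of row 3 in the first experiment in strand (8 of 10 on the minus strand).

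The ratio of Myc to the summed antagonists was 0.460, 0.337 and 0.893 in DMSO and 0.414 to 0.453 in C646. DMSO replicate 3 was thus the 1 treated tumor with a ratio in or above the range of the untreated Tumor group, although levels across the experiments were not tested. Mxd4 made up 68.8% to 81.3% of the antagonists in DMSO and 78.6% to 80.0% in C646.

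In the wider network, Mxi1 was measured at 21.1, 15.6 and 14.7 FPKM in DMSO and at 12.5, 12.5 and 11.4 FPKM in C646. These groups did not overlap, as for 4.52% of all genes tested in this direction and 4.04% in the other. The log2 change was -0.48 (95% interval -0.88 to -0.08), and it did not pass after adjustment (limma with Benjamini-Hochberg, adjusted p = 0.99). Mlxipl had the widest interval, from -0.25 to 1.91 around 0.83, and Mga, Mlx and Mlxip had log2 changes of 0.19, -0.08 and 0.25 (adjusted p of at least 0.99).

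No gene of the related lists passed in C646, under any alternative. The medians were 0.05 for the 9 cofactors, -0.17 for the 6 corepressor genes, 0.00 for the 7 turnover genes, -0.03 for 19 ribosome production genes, -0.10 for 19 growth and metabolism genes and 0.19 for 12 cell division genes. The 2 largest values of each list were log2 changes of 0.19 for Hcfc1, a chromatin cofactor, and -0.17 for Ruvbl1; -0.54 for Sap30 and -0.23 for Sin3b; and 0.19 for Usp28 and 0.15 for Usp36, both deubiquitinases of Myc. The ribosome factors Bysl and Rrp9 had -0.28 and -0.24, Tfrc and the lactate dehydrogenase Ldha had -0.33 each, and Plk1 and the proliferation marker Mki67 had 0.37 and 0.34.

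The 7 genes that Myc is known to repress had a median log2 change of -0.69, with 0 called. This median rested on single samples, since it was -0.17 without DMSO replicate 1, the same as that of the ribosome production genes there, and -1.27 without DMSO replicate 2. Cdkn1a, the p21 cell cycle inhibitor, was measured at 114, 35.9 and 41.3 FPKM in DMSO and at 23.8, 16.0 and 30.5 FPKM in C646. Cdkn2b, the p15 inhibitor, was measured at 7.34, 5.93 and 8.95 FPKM in DMSO and at 2.25, 4.31 and 2.72 FPKM in C646. Neither gene overlapped between the groups, as for 4.52% of all genes tested in this direction. Their log2 changes were -1.29 and -1.28, and neither passed after adjustment over all genes (limma with Benjamini-Hochberg, adjusted p = 0.99 for both).

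Finally, the genes whose levels followed Myc most closely over the 12 samples were ranked by the root mean square difference of their log2 values from those of Myc, each centred on its own mean. The 5 closest of 11872 genes were Nsun5, an RNA methyltransferase (0.125), Hdgf, a growth factor (0.143), Polr1c, a subunit of RNA polymerases I and III (0.152), Prss12, a serine protease (0.162), and Ybx3, a nucleic acid binding protein (0.162). Over all genes the median was 0.607. Nsun5 averaged 7.53 FPKM in Normal, 13.8 in Tumor, 10.3 in DMSO and 9.13 in C646, the same order of groups as Myc. This order follows largely from the choice of Nsun5 by its likeness to Myc in the same samples. The 12 points hold 2 experiments and 4 groups, and no test was made of this likeness.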

How the data were processed

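The authors prepared poly-A libraries that keep no strand, removed adapters with cutadapt, aligned to mm10 by TopHat2 2.1.1, and obtained FPKM from Cufflinks 2.2.1. The deposited FPKM values, 1 table of gene names and values per sample, are scaled by the length of the gene and the fragments mapped. They are not counts, and the number of fragments per sample is not in the tables, so no counting interval was given. Relative depth was read from steps in FPKM under 0.1, where they were clear. Relative to Tumor replicate 1, the depth was 1.63 in Tumor replicate 2 and 1.53 in Tumor replicate 3, and the treated tumors ranged from 0.924 to 1.29 times DMSO replicate 1.

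Rows of the same name were summed, and rows without a name were left out. Groups and replicate numbers came from the sample labels. Each comparison was fitted on its own with limma 3.58.1 in R 4.3.3 (lmFit, eBayes with a variance trend) on log2(FPKM + 0.03125). Genes entered if 3 or more of the 6 samples reached 1 FPKM, and p-values were adjusted by Benjamini-Hochberg over all genes tested. A log2 change on this scale understates the change of low genes. The code was tested on simulated data. Genes under the limit were compared with an exact two-sided permutation test. The 8 genes and all lists were chosen with earlier results of these data known.

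Named genes were all 8 members, the 5 genes of the wider network, up to 3 called genes per direction of each other list (the 2 largest values where none was called), and the 5 genes most like Myc. Positions came from GENCODE vM21 on GRCm38 and promoter windows from RefSeq on GRCm38.p6. Python 3.11.15 with pandas 2.3.3, scipy 1.17.1 and matplotlib 3.10.9 was used for the rest. Alternatives were other pseudocounts, no limit on low values, median-ratio scaling, quantile normalization, a fit over all 12 samples, a replicate block, no variance trend, and leaving out each sample. Each Mxd1 row alone was added after seeing the data.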

Additional observations from a re-analysis of the deposited data

How the results depend on the processing

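Over all alternatives, 166 of 182 log2 changes of the tested members kept their direction and their side of the threshold. Part of this was fixed in advance. No limit on low values, the fit over all 12 samples, the replicate block and no variance trend leave the log2 change itself the same. In C646 against DMSO every adjusted p of a member was 0.498 or higher (limma with Benjamini-Hochberg), so no call was near the threshold. In Tumor against Normal, Myc ranged from 0.58 to 0.85 and Mxd3 from 1.22 to 1.99, and both passed each time. Mxd1 changed with the row used (0.46 for row 1 and -0.48 for row 2 alone), Max turned to -0.11 under quantile normalization and ranged from -0.012 to 0.090 when 1 sample was left out, and Mxd4 passed under quantile normalization. Leaving out 1 sample gave 2570 to 4172 genes called lower, against 4128 in all samples, and 3030 to 3373 called higher. The lowest counts came without Normal replicate 3 (2570) and Normal replicate 2 (2686), where fewer genes were tested. In C646 against DMSO no member passed under any alternative. Quantile normalization turned Myc to 0.026 and Mxd1 to -0.0011, and leaving out 1 sample gave -0.25 to 0.26 for Myc, -0.068 to 0.067 for Max, -0.11 to 0.13 for Mxd1, -0.060 to 0.21 for Mnt, -0.64 to -0.10 for Mxd3, 0.13 to 0.45 for Mxd4, and 0 to 12 genes called lower. The cause of these changes was not tested. A replicate block gave 3439 higher and 3827 lower calls in Tumor and 0 in C646. It changed no call of the 8 genes (2 higher and 3 lower), and of the other named genes it ended the calls of Mga, Sin3a and Ndrg1. Deviations of same-numbered samples correlated at -0.0384, -0.0982 and 0.0104 in the first experiment and at 0.175, 0.0699 and 0.109 in the second, so the numbers were not taken to pair the samples. With 3 samples per group, the exact test cannot go below 0.1.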
